A study of Homo sapiens with 9 samples.

Results

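Genes of the extracellular matrix and the basement membrane were examined in human cells labelled Weri-RB1/CRP, a form of the retinoblastoma line Weri-RB1 that resists carboplatin. The set holds 34 genes out of 27407 features in the deposited table, taken by gene symbol, and all 34 were abundant enough to be tested. They cover fibronectin and matrix-bound glycoproteins, collagen chains, laminin chains, the nidogens, perlecan and agrin, and 5 genes of matrix proteases and their inhibitors. RNA sequencing was done on 3 libraries of cells with the short hairpin RNA shSNHG1#1, 3 with shSNHG1#2 and 3 with the control hairpin shNC. Both shSNHG1 hairpins target SNHG1, the host gene of several small nucleolar RNAs whose spliced transcript is a long noncoding RNA, which the series title ties to resistance against carboplatin. All 9 libraries come from the same resistant cells, and carboplatin exposure or the parental line is on no label. The labels do not say whether each hairpin line is 1 clone or a pool, or whether replicates are separate cultures. The p-values therefore cover the spread among these libraries alone, which may be technical.

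The extracellular matrix is the protein mesh that cells secrete and hold on to. The basement membrane is its sheet-like form, in which laminin and type IV collagen each build a network and nidogens and heparan sulfate proteoglycans join them. In the eye such sheets underlie the retinal pigment epithelium and line the inner surface of the retina. Transcript levels say how much message for these proteins was present, not how much matrix was laid down.

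Before the results, 3 properties of the libraries matter. Depth was nearly equal, at 21502093 to 21606498 estimated counts a library. SNHG1 was not analysed here, and groups follow the labels. Defining genes of the labelled cell type were low: of 14 photoreceptor and retinoblastoma markers in the table, 13 were below 1 FPKM (fragments per kilobase, a level corrected for transcript length and library size) in every library, GNAT2 being the exception, while the keratin gene KRT8 had 745 to 790 FPKM. Replicate 1 of shSNHG1#1 stood apart through transcripts of another tissue: SFTPC, a surfactant protein gene of lung alveoli, had 139, 4.89 and 4.25 FPKM in shSNHG1#1 libraries, 0.15, 0 and 0 FPKM in shSNHG1#2 libraries, and 5.53, 5.56 and 7.35 FPKM in shNC libraries. All results were therefore computed with and without that library, and both values are given where it changed a call, or moved a log2 fold change of shSNHG1#1 against shNC by over 1.5 times.

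Between the hairpin libraries and the control, most of the matrix genes moved, and they did not move one way. Abundant fibronectin (FN1), thrombospondin (THBS1) and TGFBI fell, while the nidogens, perlecan (HSPG2), COL1A1, COL4A1, COL7A1 and MMP14 rose. In an edgeR quasi-likelihood test over all features with Benjamini-Hochberg adjustment, 23 of 34 genes (67.6%) passed an adjusted p of 0.05 with shSNHG1#1 against shNC, 16 higher and 7 lower. Over all 18767 features tested the same call was made for 48.1%, 24.5% higher and 23.5% lower. With shSNHG1#2 against shNC, 21 of 34 genes (61.8%) passed, 15 higher and 6 lower, against 46.2% of all features, 23.3% higher and 22.8% lower. The median log2 fold change over the 34 genes was 0.20 with shSNHG1#1 and 0.15 with shSNHG1#2, against 0.02 and 0.01 over all features. Without replicate 1 of shSNHG1#1 the medians over the 34 genes were 0.13 and 0.14. A change of at least 1.5-fold past the threshold was found for 9 higher and 2 lower genes with shSNHG1#1, and for 8 higher and 2 lower with shSNHG1#2, against 16.2% and 14.2% of all features in either direction. Without replicate 1 of shSNHG1#1 the counts were 7 higher and 2 lower with shSNHG1#1, and 8 higher and 3 lower with shSNHG1#2. In FPKM the libraries of shSNHG1#1 and shNC did not overlap for 23 genes (67.6%), against 53.3% of all features, those of shSNHG1#2 and shNC for 25 genes (73.5%), against 52.6%, and those of shSNHG1#2 and shSNHG1#1 for 11 genes (32.4%), against 19.2%. Both comparisons with the control use the same shNC libraries, so their counts are not independent.

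**Figure D1:**
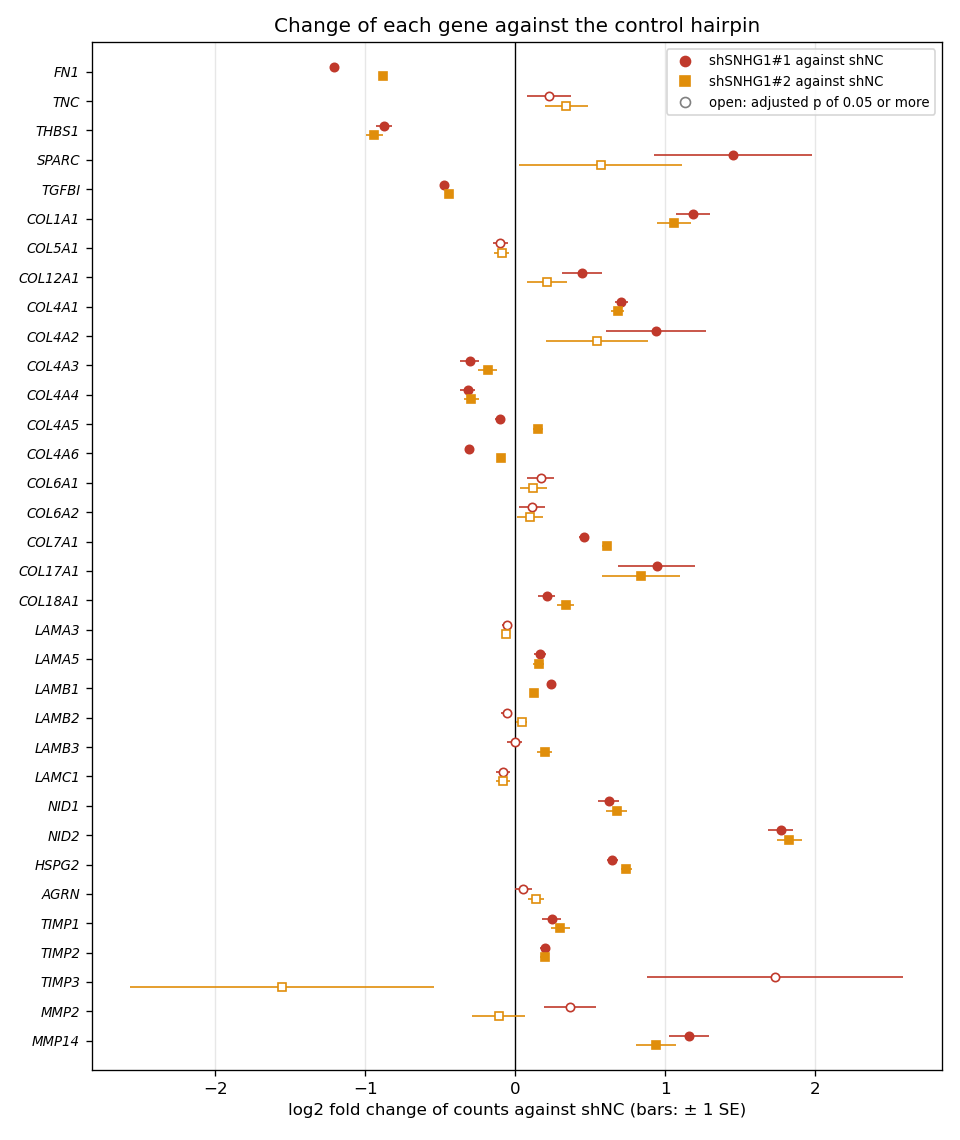
Log2 fold change of counts (horizontal axis) for each of the 34 genes with shSNHG1#1 against shNC (red circles) and shSNHG1#2 against shNC (orange squares), with bars of 1 standard error on each side. Open symbols did not pass an adjusted p of 0.05. FN1 and THBS1 lie farthest left among filled symbols and NID2 farthest right.

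Levels ran from 0.07 FPKM for TIMP3 with shSNHG1#2 to 722 FPKM for FN1 with shNC. FN1 was the most abundant of the 34 genes in all 9 libraries, followed by TGFBI and TIMP1, whereas COL12A1 reached at most 1.09 FPKM and COL17A1 at most 0.53 FPKM in any library. Summed over the 34 genes, FPKM came to 1436 to 1460 in shSNHG1#1 libraries, 1555 to 1604 in shSNHG1#2 libraries and 1829 to 1858 in shNC libraries. FN1 alone made up 21.3% to 22.4% of that sum with shSNHG1#1, 25.3% to 26.0% with shSNHG1#2 and 38.6% to 39.4% with shNC. Without FN1 the sums were 1116 to 1149 with shSNHG1#1, 1150 to 1198 with shSNHG1#2 and 1108 to 1141 with shNC, ranges that lie close together or overlap.

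**Figure D2:**
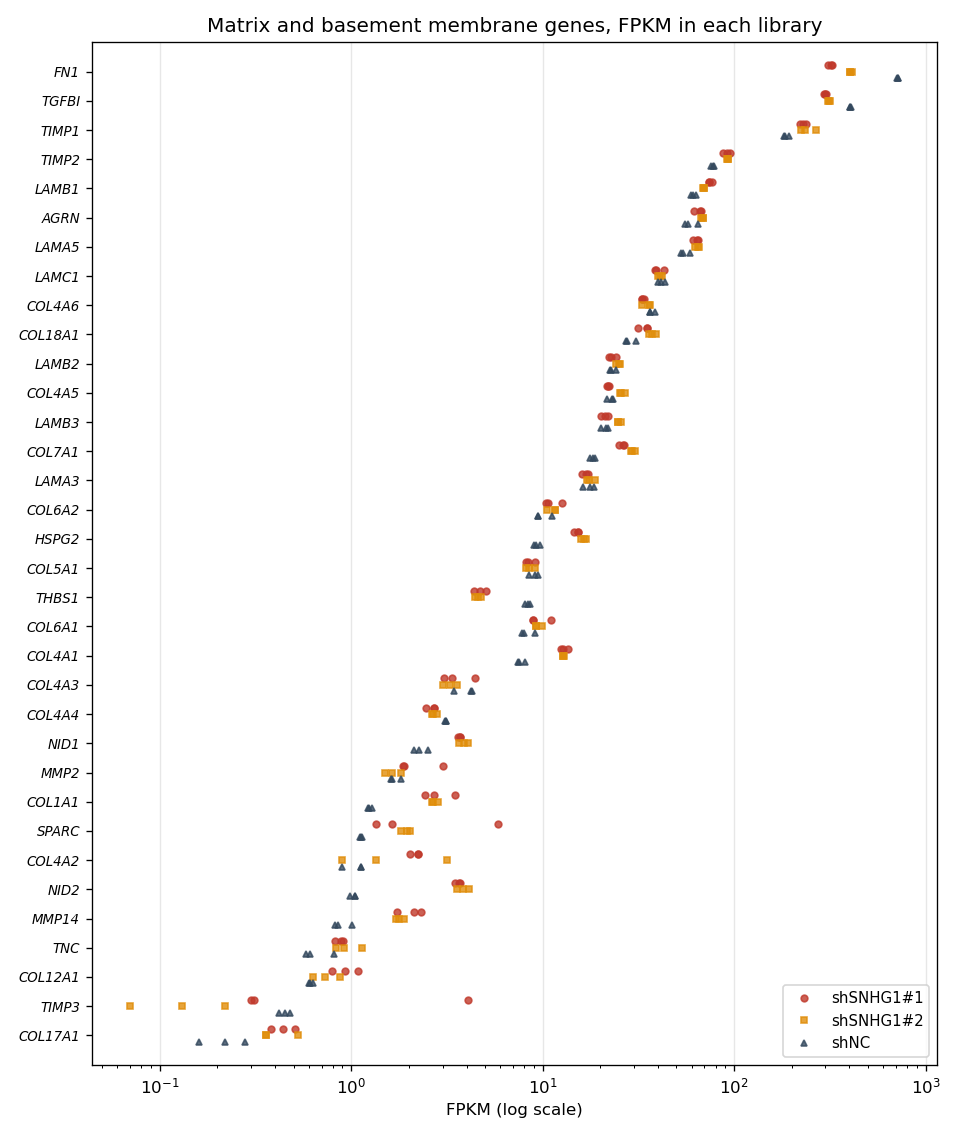
FPKM in each library on a log axis for the 34 genes, ordered by their mean level in shNC, with shSNHG1#1 as circles, shSNHG1#2 as squares and shNC as triangles. FN1, at the top, is the most abundant in every group, and TIMP3 near the bottom has 1 circle far to the right of all other points, which is replicate 1 of shSNHG1#1.

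Adhesive glycoproteins carried the clearest decreases. FN1 encodes fibronectin, which binds integrins at the cell surface and assembles into fibrils. FN1 averaged 319 ± 7.45 FPKM with shSNHG1#1, 407 ± 3.29 FPKM with shSNHG1#2 and 716 ± 5.85 FPKM with shNC (SD, n = 3 each). Its libraries had 311, 319 and 326 FPKM in shSNHG1#1 libraries, 405, 411 and 405 FPKM in shSNHG1#2 libraries, and 710.0, 722 and 717 FPKM in shNC libraries. All 6 hairpin libraries lay below all 3 control libraries, and the 3 groups did not overlap. FN1 fell by 1.21 on the log2 scale with shSNHG1#1 (SE 0.02, edgeR adjusted p = 2.65e-11) and by 0.88 with shSNHG1#2 (SE 0.02, adjusted p = 3.59e-10). THBS1, which encodes thrombospondin-1, a secreted glycoprotein that can activate latent TGF-beta, had 5.03, 4.38 and 4.70 FPKM with shSNHG1#1, 4.45, 4.58 and 4.77 FPKM with shSNHG1#2, and 8.07, 8.40 and 8.60 FPKM with shNC. Its log2 fold change was -0.87 with shSNHG1#1 (SE 0.06, adjusted p = 3.27e-07) and -0.94 with shSNHG1#2 (SE 0.06, adjusted p = 2.41e-07), and the groups with and without a shSNHG1 hairpin did not overlap. TGFBI, named for its induction by TGF-beta and able to bind collagens and integrins, had 300.1, 296 and 302 FPKM with shSNHG1#1, 308, 316 and 313 FPKM with shSNHG1#2, and 403, 406 and 401 FPKM with shNC. The decrease of TGFBI was smaller, -0.48 with shSNHG1#1 (SE 0.02, adjusted p = 1.68e-08) and -0.44 with shSNHG1#2 (SE 0.02, adjusted p = 4.36e-08), but the libraries again did not overlap. In bulk RNA, fewer cells that make a transcript and less of it per cell cannot be told apart.

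The other 2 glycoproteins gave no stable call. SPARC, a collagen-binding glycoprotein, had 5.83, 1.35 and 1.63 FPKM with shSNHG1#1, 1.95, 2.03 and 1.82 FPKM with shSNHG1#2, and 1.14, 1.12 and 1.11 FPKM with shNC. Every hairpin library lay above every control library, and replicate 1 of shSNHG1#1 was 3.91 times the mean of the other 2 libraries of its group. The log2 fold change with shSNHG1#1 was 1.45 (SE 0.53, adjusted p = 0.0421) over all libraries and 0.29 (adjusted p = 0.209) without that library, and the call was also lost without any 1 library of shSNHG1#2 or shNC. With shSNHG1#2 the log2 fold change was 0.57 (SE 0.54, adjusted p = 0.433) over all libraries and 0.56 (adjusted p = 0.0142) without replicate 1 of shSNHG1#1. TNC encodes tenascin-C, which modulates cell adhesion to fibronectin. It ranged over 0.82 to 0.91 FPKM with shSNHG1#1, 0.83 to 1.14 FPKM with shSNHG1#2 and 0.58 to 0.81 FPKM with shNC, and did not pass the test with either hairpin (adjusted p = 0.232 and 0.0758). All hairpin values of TNC lay above the control. With shSNHG1#2 TNC passed under scaling to library totals (0.41, edgeR adjusted p = 0.0383). It also passed there in a limma test on log2(FPKM + 1) (0.24, adjusted p = 0.0349).

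Over all libraries, FN1 and THBS1 were the 2 genes of the set that fell by over 1.5-fold past the threshold. The 250 bases before their annotated starts are shown to give the sequence context of that decrease. They come from the RefSeq table for build GRCh38.p14, in which 29 of the 34 genes had an entry. Capitals mark the CCAAT box (CCAAT), the GC box (GGGCGG) and the cyclic AMP response element (TGACGTCA), each searched on both strands with overlapping copies counted. FN1 lies on the minus strand, chr2:215436069-215436318, and THBS1 on the plus strand, chr15:39580829-39581078.
FN1: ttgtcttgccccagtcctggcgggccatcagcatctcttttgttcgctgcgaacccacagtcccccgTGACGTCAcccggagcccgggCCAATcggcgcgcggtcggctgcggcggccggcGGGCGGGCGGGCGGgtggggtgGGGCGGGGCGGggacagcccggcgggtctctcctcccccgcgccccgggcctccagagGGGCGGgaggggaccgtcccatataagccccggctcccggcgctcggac
THBS1: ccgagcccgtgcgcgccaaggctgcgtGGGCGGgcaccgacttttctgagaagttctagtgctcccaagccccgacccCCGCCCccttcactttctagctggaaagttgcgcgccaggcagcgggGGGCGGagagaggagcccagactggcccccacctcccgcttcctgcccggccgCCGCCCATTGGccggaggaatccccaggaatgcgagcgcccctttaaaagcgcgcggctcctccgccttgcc
The FN1 window holds 1 CCAAT box, 6 GC boxes and 1 cyclic AMP response element. The THBS1 window holds 1 CCAAT box, 4 GC boxes and no cyclic AMP response element in these letters. Of all 27303 RefSeq genes in the table, 33% hold a CCAAT box in such a window, 42.3% a GC box and 1.77% a cyclic AMP response element. Of the 29 matched genes of the set, 11 hold a CCAAT box, 24 a GC box and 1, FN1, a cyclic AMP response element. These matches describe the letters and were not tied to the changes.

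Of 3 chains of fibrils or of collagens that decorate them, COL1A1, COL5A1 and COL12A1, 1 rose with both hairpins. COL1A1, the alpha 1 chain of type I collagen, the main fibril of connective tissue, had 3.50, 2.44 and 2.70 FPKM with shSNHG1#1, 2.67, 2.84 and 2.63 FPKM with shSNHG1#2, and 1.23, 1.28 and 1.24 FPKM with shNC. Every hairpin library lay above every control library, and replicate 1 of shSNHG1#1 was the highest. The log2 fold change was 1.18 with shSNHG1#1 (SE 0.11, adjusted p = 8.72e-06), 1.03 without replicate 1 (adjusted p = 4.31e-06), and 1.06 with shSNHG1#2 (SE 0.11, adjusted p = 2.47e-05). COL12A1, a collagen that decorates fibrils, had 1.09, 0.93 and 0.79 FPKM with shSNHG1#1, 0.63, 0.73 and 0.87 FPKM with shSNHG1#2, and 0.61, 0.63 and 0.60 FPKM with shNC. Its increase with shSNHG1#1 (log2 fold change 0.44, SE 0.13, adjusted p = 0.0171) did not pass without replicate 1 (0.32, adjusted p = 0.0784), nor without replicate 1 or 3 of shNC (adjusted p = 0.0525 and 0.0586). COL5A1, a chain of the collagen that starts fibrils, ranged from 8.15 to 9.44 FPKM over all libraries with overlapping groups and passed with neither hairpin (adjusted p = 0.13 and 0.169), although leaving out replicate 1 of shSNHG1#2 gave -0.11 at 0.0456 with shSNHG1#1 and -0.14 at 0.0294 with shSNHG1#2.

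Among the 6 type IV collagen chains, which build the network of the basement membrane, changes ran in both directions. COL4A1 rose with both hairpins, while COL4A3, COL4A4 and COL4A6 fell with both. COL4A1, which pairs with COL4A2 in the trimer found in nearly all basement membranes, had 13.6, 12.5 and 12.7 FPKM with shSNHG1#1, 12.8, 12.8 and 13.0 FPKM with shSNHG1#2, and 7.41, 7.54 and 8.11 FPKM with shNC. The groups with a shSNHG1 hairpin did not overlap the control, at a log2 fold change of 0.71 with shSNHG1#1 (SE 0.04, adjusted p = 2.77e-07) and 0.68 with shSNHG1#2 (SE 0.04, adjusted p = 4.33e-07). COL4A2 had 2.24, 2.02 and 2.24 FPKM with shSNHG1#1, 1.34, 3.15 and 0.90 FPKM with shSNHG1#2, and 1.12, 1.12 and 0.90 FPKM with shNC. The shSNHG1#1 libraries lay above the control, whereas those of shSNHG1#2 spread from the control level to the highest value seen. The log2 fold change of COL4A2 was 0.94 with shSNHG1#1 (SE 0.33, adjusted p = 0.0381), a call lost without any 1 of the 6 libraries compared (0.84 to 1.01, adjusted p up to 0.117). With shSNHG1#2 it was 0.54 (SE 0.34, adjusted p = 0.22), and it rested on single libraries of that group: 0.84 at an adjusted p of 0.0391 without replicate 3, and -0.10 at 0.645 without replicate 2.

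COL4A3 and COL4A4, chains of the specialised network of kidney, lung and eye, were low. COL4A3 had 3.04 to 4.41 FPKM with shSNHG1#1, 3.03 to 3.56 FPKM with shSNHG1#2 and 3.45 to 4.25 FPKM with shNC, with overlap. Its counts fell by 0.30 with shSNHG1#1 (SE 0.06, adjusted p = 0.00233) and by 0.18 with shSNHG1#2 (SE 0.06, adjusted p = 0.0349), the second not past the threshold without replicate 1 of shSNHG1#2 (-0.12, adjusted p = 0.115) or without replicate 1 or 3 of shNC (adjusted p = 0.0758 and 0.0792). Under scaling to library totals the decrease of COL4A3 with shSNHG1#2 was -0.12 (adjusted p = 0.183), and a limma test on log2(FPKM + 1) gave -0.12 with shSNHG1#1 (adjusted p = 0.47) and -0.21 with shSNHG1#2 (adjusted p = 0.192). COL4A4 had 2.47 to 2.70 FPKM with shSNHG1#1, 2.65 to 2.79 FPKM with shSNHG1#2 and 3.09 to 3.14 FPKM with shNC, without overlap against the control (log2 fold change -0.32 and -0.29, adjusted p = 0.000352 and 0.00062), and with limma on log2(FPKM + 1) the decrease with shSNHG1#2 did not pass (-0.15, adjusted p = 0.0555). COL4A6 had 33.2, 33.0 and 33.9 FPKM with shSNHG1#1, 33.0, 35.9 and 36.4 FPKM with shSNHG1#2, and 36.3, 36.2 and 38.7 FPKM with shNC. In counts it fell by 0.31 with shSNHG1#1 (SE 0.02, adjusted p = 2.09e-06) and by 0.10 with shSNHG1#2 (SE 0.02, adjusted p = 0.00835), and the second was not called under scaling to library totals (-0.03, adjusted p = 0.372) or with limma on log2(FPKM + 1) (-0.08, adjusted p = 0.178). COL4A5 had 22.0, 22.3 and 21.7 FPKM with shSNHG1#1, 25.7, 26.8 and 25.4 FPKM with shSNHG1#2, and 22.9, 21.6 and 23.4 FPKM with shNC. The shSNHG1#2 libraries stood above all the others (log2 fold change 0.15, SE 0.03, adjusted p = 0.00388). With shSNHG1#1 the groups overlapped, and the change of -0.10 (SE 0.03, adjusted p = 0.0346) was lost without replicate 1 or 3 of shSNHG1#1 or replicate 1 or 3 of shNC (adjusted p up to 0.0835).

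In RefSeq the 6 chains lie in 3 pairs that start back to back: COL4A1 and COL4A2 on chromosome 13 with 126 bases between their starts, COL4A4 and COL4A3 on chromosome 2 with 418, and COL4A6 and COL4A5 on chromosome X with 379. COL4A1 exceeded COL4A2 by 5.67 to 6.20 times with shSNHG1#1, 4.08 to 14.4 times with shSNHG1#2 and 6.62 to 9.01 times with shNC. COL4A5 stood at 0.639 to 0.675 of COL4A6 with shSNHG1#1, 0.699 to 0.778 with shSNHG1#2 and 0.597 to 0.631 with shNC, without overlap between groups. COL4A3 exceeded COL4A4 by 1.13 to 1.79 times with shSNHG1#1, 1.14 to 1.28 times with shSNHG1#2 and 1.11 to 1.36 times with shNC, and these ranges overlapped. The 126 bases between COL4A1 and COL4A2, chr13:110307158-110307283 of GRCh38.p14 on the plus strand, are shown because both genes start from them, COL4A1 to the left and COL4A2 to the right.
COL4A1 to COL4A2: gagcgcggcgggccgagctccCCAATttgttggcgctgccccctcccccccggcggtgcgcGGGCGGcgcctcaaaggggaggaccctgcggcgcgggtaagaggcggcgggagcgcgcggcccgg
Capitals mark 1 CCAAT box and 1 GC box, and no cyclic AMP response element in these letters. Among windows of the same length before the starts of all 27303 genes, 21.9% hold a CCAAT box, 34.6% a GC box and 1.43% a cyclic AMP response element.

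Of 4 genes for linkers of the basement membrane, 3 rose with both hairpins. The nidogens bind laminin on one side and type IV collagen on the other, and perlecan and agrin are the large heparan sulfate proteoglycans of the sheet. NID2 had 3.47, 3.68 and 3.65 FPKM with shSNHG1#1, 4.10, 3.58 and 3.84 FPKM with shSNHG1#2, and 1.05, 0.98 and 1.05 FPKM with shNC. Its increase was the highest of the 34 genes among those that passed in both comparisons, 3.41-fold with shSNHG1#1 (log2 fold change 1.77, SE 0.08, adjusted p = 3.01e-08) and 3.54-fold with shSNHG1#2 (1.83, SE 0.08, adjusted p = 3.19e-08). NID1 had 3.69, 3.59 and 3.68 FPKM with shSNHG1#1, 4.06, 3.88 and 3.66 FPKM with shSNHG1#2, and 2.27, 2.13 and 2.51 FPKM with shNC (log2 fold change 0.62 and 0.68, SE 0.07 each, adjusted p = 2.74e-05 and 1.67e-05). Both nidogens had every hairpin library above every control library. HSPG2, which encodes perlecan, had 15.3, 14.5 and 15.4 FPKM with shSNHG1#1, 16.8, 16.4 and 15.9 FPKM with shSNHG1#2, and 9.03, 9.28 and 9.71 FPKM with shNC. The log2 fold change of HSPG2 was 0.65 with shSNHG1#1 (SE 0.04, adjusted p = 2.01e-07) and 0.74 with shSNHG1#2 (SE 0.04, adjusted p = 9.12e-08). AGRN, the agrin gene, had 67.2, 61.9 and 66.4 FPKM with shSNHG1#1, 68.8, 69.2 and 66.8 FPKM with shSNHG1#2, and 57.7, 55.3 and 64.4 FPKM with shNC, and passed with neither hairpin (log2 fold change 0.05 and 0.14, adjusted p = 0.457 and 0.0651). AGRN with shSNHG1#2 did pass without replicate 3 of shNC (0.19, adjusted p = 0.0108) and under library totals (0.20, adjusted p = 0.0139). It also passed with DESeq2 (adjusted p = 0.031) and with limma on log2(FPKM + 1) (adjusted p = 0.0157). In edgeR it passed with a replicate block (adjusted p = 0.0489) and with only the 6 libraries compared (0.0492). Without replicate 2 of shNC it was 0.09 at an edgeR adjusted p of 0.276.

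The windows of NID2 (minus strand, chr14:52069060-52069309) and HSPG2 (minus strand, chr1:21937311-21937560) are shown as those of 2 linker genes that rose together, with the same motifs in capitals.
NID2: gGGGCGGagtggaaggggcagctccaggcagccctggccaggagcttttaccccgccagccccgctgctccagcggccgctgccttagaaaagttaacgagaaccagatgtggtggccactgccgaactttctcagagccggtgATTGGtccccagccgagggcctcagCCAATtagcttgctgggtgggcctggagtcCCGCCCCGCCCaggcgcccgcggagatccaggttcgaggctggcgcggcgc
HSPG2: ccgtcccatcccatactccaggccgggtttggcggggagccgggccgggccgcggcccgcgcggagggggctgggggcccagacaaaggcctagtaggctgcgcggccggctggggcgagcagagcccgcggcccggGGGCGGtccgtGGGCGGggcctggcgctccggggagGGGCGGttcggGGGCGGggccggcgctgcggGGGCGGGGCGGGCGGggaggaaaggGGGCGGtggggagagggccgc
NID2 holds 2 CCAAT boxes and 3 GC boxes, and HSPG2 holds 8 GC boxes and no CCAAT box in these letters.

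**Figure D3:**
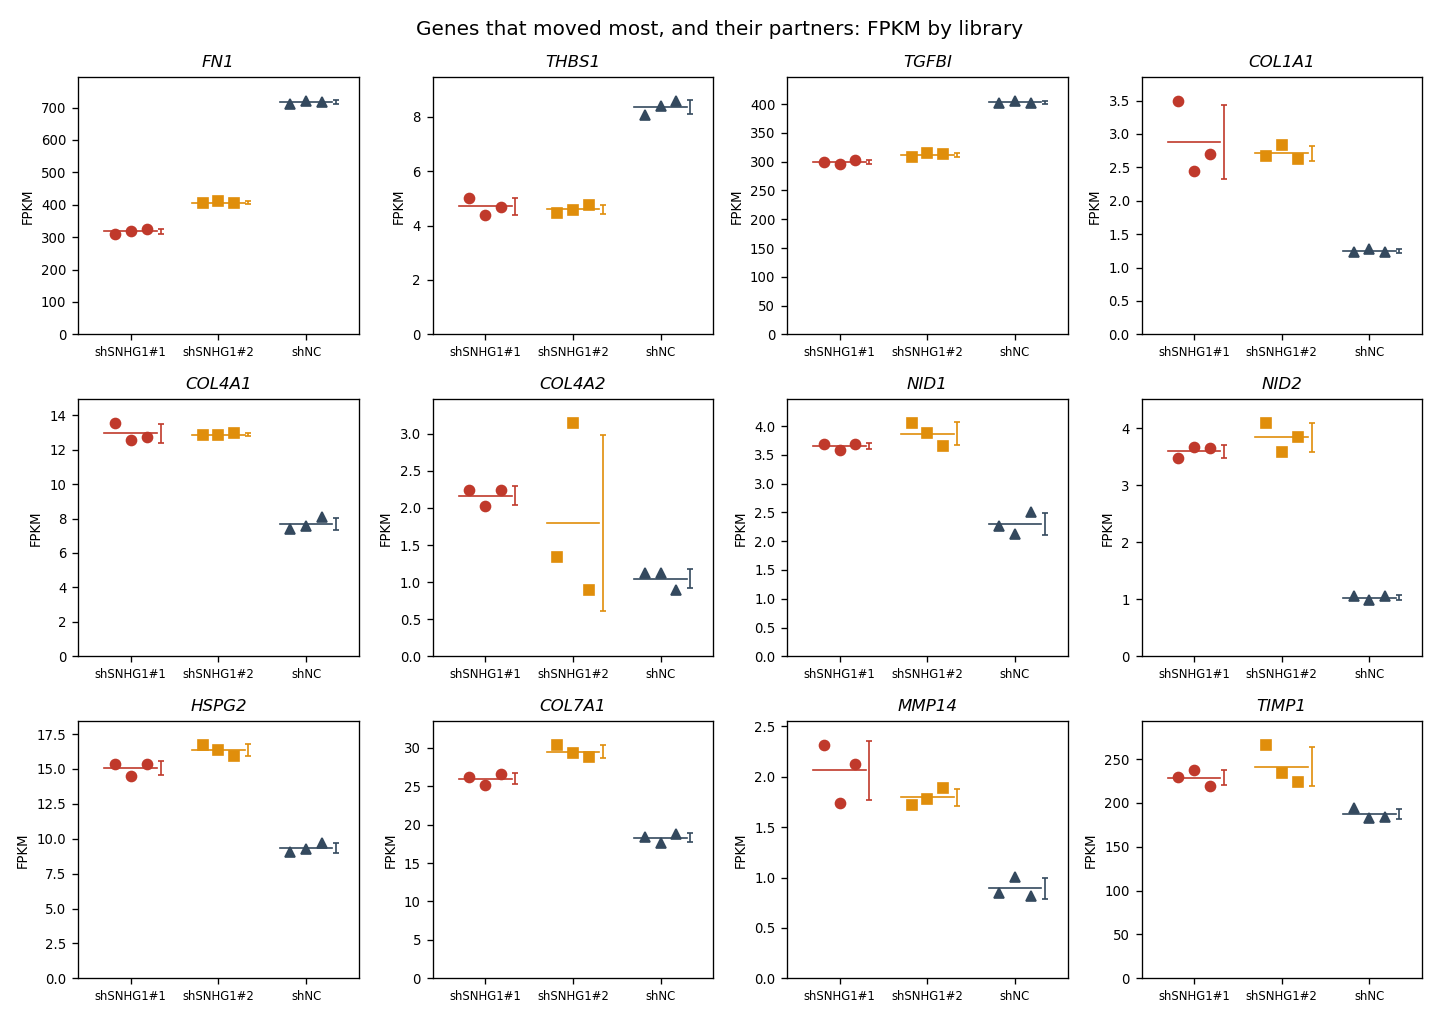
FPKM (vertical axes, from 0) in each library for 12 of the genes, with shSNHG1#1 on the left, shSNHG1#2 in the middle and shNC on the right of each panel. Horizontal lines are means and bars are 1 SD on each side (n = 3). FN1, THBS1 and TGFBI sit lower in both hairpin groups, COL4A2 with shSNHG1#2 spreads over the whole panel, and the other 8 sit higher in both hairpin groups.

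Laminin chains form the other network of the sheet, and none of the 6 changed by as much as 1.5-fold. LAMA5 and LAMB1 rose with both hairpins, LAMB3 passed with shSNHG1#2, and LAMA3, LAMB2 and LAMC1 passed with neither. LAMB1, a beta chain of widespread laminins, had 74.0, 73.6 and 76.6 FPKM with shSNHG1#1, 68.9, 69.5 and 69.8 FPKM with shSNHG1#2, and 60.6, 59.5 and 63.2 FPKM with shNC (log2 fold change 0.24 and 0.13, adjusted p = 1.44e-05 and 0.00154). LAMA5, an alpha chain of many adult basement membranes, had 64.2, 60.9 and 64.9 FPKM with shSNHG1#1, 65.4, 64.5 and 62.2 FPKM with shSNHG1#2, and 53.8, 52.7 and 58.5 FPKM with shNC (log2 fold change 0.16 in both comparisons, adjusted p = 0.00421 and 0.00612). In both genes the control libraries were the lowest 3. LAMB3, a chain of the laminin that anchors epithelia, had 21.0, 20.3 and 21.9 FPKM with shSNHG1#1, 25.6, 24.6 and 24.7 FPKM with shSNHG1#2, and 21.3, 20.1 and 21.9 FPKM with shNC. Only the shSNHG1#2 libraries of LAMB3 stood apart from the control (log2 fold change 0.20, SE 0.05, adjusted p = 0.00706, against 0.00 and 0.953 with shSNHG1#1).

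LAMA3, the alpha chain that joins LAMB3, had 16.8, 17.2 and 16.1 FPKM with shSNHG1#1, 17.4, 17.1 and 18.7 FPKM with shSNHG1#2, and 18.6, 16.2 and 17.7 FPKM with shNC. Its log2 fold changes of -0.06 and -0.06 did not pass (adjusted p = 0.109 and 0.0811), although that with shSNHG1#2 was -0.07 at 0.0424 without replicate 1 of shSNHG1#1 and also passed without replicate 2 of that group. LAMB2, a beta chain of retinal and neuromuscular laminins, had 22.6, 22.2 and 24.0 FPKM with shSNHG1#1, 25.5, 25.2 and 24.1 FPKM with shSNHG1#2, and 22.7, 22.5 and 24.0 FPKM with shNC (adjusted p = 0.252 and 0.391). Under scaling to library totals LAMB2 passed with shSNHG1#2 (0.11, edgeR adjusted p = 0.042). LAMC1, the gamma chain shared by most laminins, had 39.1, 43.1 and 38.8 FPKM with shSNHG1#1, 39.9, 41.1 and 42.1 FPKM with shSNHG1#2, and 39.8, 43.5 and 41.5 FPKM with shNC, overlapping throughout (adjusted p = 0.17 and 0.18). Without replicate 2 of shSNHG1#1, LAMC1 passed at -0.15 with shSNHG1#1 (adjusted p = 0.00673) and at -0.09 with shSNHG1#2 (adjusted p = 0.0388).

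Of the other 5 collagen chains, the 3 that sit at or beneath the epithelial sheet rose with both hairpins and the 2 type VI chains gave no call. COL7A1, which forms the anchoring fibrils beneath epithelia, had 26.1, 25.2 and 26.6 FPKM with shSNHG1#1, 30.4, 29.3 and 28.8 FPKM with shSNHG1#2, and 18.4, 17.6 and 18.8 FPKM with shNC. The 3 groups did not overlap, and the log2 fold change was 0.46 with shSNHG1#1 (SE 0.03, adjusted p = 4.10e-07) and 0.61 with shSNHG1#2 (SE 0.03, adjusted p = 5.50e-08). COL18A1, the basement membrane collagen from which endostatin is cut, had 35.3, 31.6 and 35.0 FPKM with shSNHG1#1, 39.3, 37.2 and 36.1 FPKM with shSNHG1#2, and 27.2, 27.4 and 30.7 FPKM with shNC. Its log2 fold change was 0.34 with shSNHG1#2 (SE 0.06, adjusted p = 0.000536) and 0.21 with shSNHG1#1 (SE 0.06, adjusted p = 0.00953), the call with shSNHG1#1 being lost without replicate 1 or 2 of shNC (adjusted p = 0.0528 and 0.0514). COL17A1, a transmembrane collagen of hemidesmosomes, had 0.38, 0.44 and 0.51 FPKM with shSNHG1#1, 0.36, 0.36 and 0.53 FPKM with shSNHG1#2, and 0.16, 0.22 and 0.28 FPKM with shNC. These levels rest on 42 to 62 estimated counts per hairpin library and 19 to 33 per control library. COL17A1 passed with shSNHG1#1 (log2 fold change 0.94, SE 0.26, adjusted p = 0.011) and with shSNHG1#2 (0.84, SE 0.26, adjusted p = 0.0209), and the second call was lost without replicate 3 of shSNHG1#2 or replicate 1 or 2 of shNC (adjusted p up to 0.0914). The type VI chains COL6A1 and COL6A2, which form beaded filaments, passed with neither hairpin (adjusted p 0.149 to 0.401). COL6A2 had 12.6, 10.4 and 10.7 FPKM with shSNHG1#1, 11.6, 11.6 and 10.5 FPKM with shSNHG1#2, and 9.45, 9.42 and 11.2 FPKM with shNC, and COL6A1 spanned 7.79 to 11.1 FPKM over all libraries.

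Among proteases and their inhibitors, MMP14, TIMP1 and TIMP2 rose with both hairpins. MMP14 encodes a membrane-bound collagenase that activates pro-MMP2 together with TIMP2. It had 2.32, 1.74 and 2.13 FPKM with shSNHG1#1, 1.72, 1.78 and 1.89 FPKM with shSNHG1#2, and 0.85, 1.01 and 0.82 FPKM with shNC, with no overlap. The log2 fold change was 1.16 with shSNHG1#1 (SE 0.13, adjusted p = 3.56e-05), 1.05 without replicate 1 (adjusted p = 0.000202), and 0.94 with shSNHG1#2 (SE 0.13, adjusted p = 2.00e-04). TIMP1, a secreted inhibitor of most matrix metalloproteinases, had 229.9, 237 and 219.6 FPKM with shSNHG1#1, 267, 234 and 223 FPKM with shSNHG1#2, and 194, 183 and 184 FPKM with shNC (log2 fold change 0.24 and 0.30, adjusted p = 0.00926 and 0.00278). TIMP2 had 94.8, 87.1 and 92.3 FPKM with shSNHG1#1, 93.2, 91.4 and 92.6 FPKM with shSNHG1#2, and 77.2, 76.0 and 78.2 FPKM with shNC (log2 fold change 0.20 in both comparisons, adjusted p = 0.000319 and 0.000396). MMP2, a gelatinase that cuts type IV collagen, had 3.02, 1.86 and 1.88 FPKM with shSNHG1#1, 1.83, 1.64 and 1.5 FPKM with shSNHG1#2, and 1.62, 1.64 and 1.83 FPKM with shNC, and passed with neither hairpin (adjusted p = 0.108 and 0.657).

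TIMP3, an inhibitor that stays bound in the matrix and lies in the membrane beneath the retinal pigment epithelium, had 4.06, 0.30 and 0.31 FPKM with shSNHG1#1, 0.22, 0.13 and 0.07 FPKM with shSNHG1#2, and 0.48, 0.42 and 0.45 FPKM with shNC. The other 8 libraries were all below 0.5 FPKM, and apart from replicate 1 of shSNHG1#1 every hairpin library lay below the control. The log2 fold change with shSNHG1#1 was 1.73 (SE 0.86, adjusted p = 0.123) with that library and -0.62 (adjusted p = 0.219) without it. Without replicate 2 or 3 of shSNHG1#1 it was 2.21 and 2.197 (adjusted p = 0.0406 and 0.0419). With shSNHG1#2 it was -1.55 (SE 1.01, adjusted p = 0.245) over all 9 libraries and -1.56 (adjusted p = 0.00506) without replicate 1 of shSNHG1#1, which enters that comparison through the shared spread, the scaling and the filter on low counts. The lung gene SFTPC was also lower in every shSNHG1#2 library than in the control, without passing the test over all libraries (edgeR adjusted p = 0.0812). Of 8 lung epithelium markers tested with shSNHG1#2 against shNC, 1 was called lower over all libraries and 6 without replicate 1 of shSNHG1#1. In both fits 0 were called higher, and of all features 46.2% and 45.8% were called in either direction. Of the other lung markers, SFTPA1, SFTPA2, SFTPB, SCGB3A1, SCGB3A2, SLC34A2 and LAMP3 also lay below the control in every shSNHG1#2 library. Values of SFTPD, SCGB1A1, NAPSA, AGER, CLDN18 and NKX2-1 with shSNHG1#2 overlapped the control. The part of lung transcripts in the TIMP3 difference was not tested.

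Between the 2 hairpins few genes passed the test, and FN1 had the largest difference among them. With shSNHG1#2 against shSNHG1#1, 4 genes were higher and 1 lower, 14.7% of the 34, against 3.12% of all features, 2% higher and 1.12% lower. FN1 had 405 to 411 FPKM with shSNHG1#2 and 311 to 326 FPKM with shSNHG1#1 (log2 fold change 0.33, SE 0.02, adjusted p = 3.58e-05). COL4A5 had 25.4 to 26.8 FPKM with shSNHG1#2 and 21.7 to 22.3 FPKM with shSNHG1#1 (0.25, SE 0.03, adjusted p = 0.00271). COL7A1 had 28.8 to 30.4 FPKM with shSNHG1#2 and 25.2 to 26.6 FPKM with shSNHG1#1 (0.15, SE 0.03, adjusted p = 0.0173), a call lost without replicate 2 of shSNHG1#1 (adjusted p = 0.0567). For these 3 genes no library of one hairpin overlapped the other. COL4A6 was higher with shSNHG1#2 in counts (0.21, SE 0.02, adjusted p = 0.000976), but its FPKM overlapped, at 33.0 to 36.4 with shSNHG1#2 and 33.0 to 33.9 with shSNHG1#1, and a limma test on log2(FPKM + 1) gave 0.07 at an adjusted p of 0.487. LAMB1 was lower with shSNHG1#2, 68.9 to 69.8 FPKM, than with shSNHG1#1, 73.6 to 76.6 FPKM (-0.11, SE 0.02, adjusted p = 0.0348), a call that was lost without any 1 of 7 of the 9 libraries and under 6 other settings (adjusted p up to 0.22). LAMB3, at 24.6 to 25.6 FPKM with shSNHG1#2 and 20.3 to 21.9 FPKM with shSNHG1#1, just missed the threshold (0.20, SE 0.05, adjusted p = 0.0588) and passed it with DESeq2 (adjusted p = 0.00226), with limma on log2(FPKM + 1) (0.0267), under library totals (0.0474) and without replicate 3 of shNC (0.0479). COL4A2 passed without replicate 2 of shSNHG1#2 (-1.03, adjusted p = 0.00781).

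Without replicate 1 of shSNHG1#1, 4 of the 23 calls of its group were lost. Then 13 genes were higher and 6 lower, against 43.4% of all features called. The lost calls were SPARC, COL12A1, COL4A2 (0.91, adjusted p = 0.085) and COL4A5 (-0.10, adjusted p = 0.0599), while FN1, THBS1, TGFBI, COL1A1, COL4A1, both nidogens, HSPG2, COL7A1 and MMP14 were still called in the same direction. With shSNHG1#2 against shNC 16 genes were then higher and 8 lower, against 45.8% of all features, and between the hairpins 4 were higher and 1 lower, against 2.18%. Relative to the mean of replicates 2 and 3, replicate 1 held 13.3 times the FPKM of TIMP3, 3.91 times that of SPARC, 1.61 times that of MMP2 and 1.36 times that of COL1A1. Among genes that did not pass with or without it, the log2 fold change with shSNHG1#1 was 0.12 without replicate 1, against 0.37 over all libraries, for MMP2. It was 0.05 against 0.17 for COL6A1, 0.01 against 0.11 for COL6A2, 0.14 against 0.22 for TNC, 0.02 against 0.05 for AGRN, and -0.01 against -0.00 for LAMB3. FN1, by contrast, was lowest of its group in replicate 1.

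Markers of lung tissue and of other cell types were compared between the same libraries. Of 14 lung epithelium markers, 13 were highest in replicate 1 of shSNHG1#1. The sum of all 14 was 344.6, 35.96 and 34 FPKM with shSNHG1#1. It was 35.08 to 40.13 FPKM with shSNHG1#2 and 83.82 to 90.26 FPKM with shNC. LAMP3 alone made up 19.64 to 20.58 FPKM with shSNHG1#1, 31.14 to 36.34 FPKM with shSNHG1#2 and 65.76 to 74.77 FPKM with shNC. Without LAMP3, which was left out after its values were seen, the sum was 324, 16.2 and 14.4 FPKM with shSNHG1#1. It was then 3.79, 3.94 and 3.86 FPKM with shSNHG1#2, and 16.6, 15.5 and 22.1 FPKM with shNC. With LAMP3, every shNC library lay above replicates 2 and 3 of shSNHG1#1, and without it their ranges overlapped. Of 10 fibroblast and mural markers, 8 were highest in replicate 1, and their sum was 41.3, 20.8 and 22.3 FPKM with shSNHG1#1, 21.48 to 23.7 FPKM with shSNHG1#2, and 17.6 to 21.2 FPKM with shNC. ACTA2 alone made up 16.77 to 19.19 FPKM of that sum with shSNHG1#1, 17.97 to 18.97 FPKM with shSNHG1#2 and 15.5 to 17.55 FPKM with shNC. DCN, a defining fibroblast gene, had 9.80, 0.26 and 0.21 FPKM with shSNHG1#1, 0 to 0.02 FPKM with shSNHG1#2 and 0.22 to 0.81 FPKM with shNC. Of 8 endothelial markers, 6 were highest in replicate 1, with sums of 30.7, 21.7 and 23.2 FPKM with shSNHG1#1, 25.1 to 29.9 FPKM with shSNHG1#2 and 21.6 to 23.7 FPKM with shNC. EGFL7 alone made up 20.26 to 23.99 FPKM of these sums with shSNHG1#1, 23.5 to 27.01 FPKM with shSNHG1#2 and 19.27 to 21.11 FPKM with shNC. Blood and macrophage markers, 9 of 10 highest in replicate 1, summed to 154, 96.9 and 94.0 FPKM with shSNHG1#1, 128 to 131 FPKM with shSNHG1#2 and 279.5 to 296 FPKM with shNC. CD68 alone made up 83.5 to 90.03 FPKM with shSNHG1#1, 121 to 124 FPKM with shSNHG1#2 and 268 to 286 FPKM with shNC. Without CD68, which was left out after its values were seen, the sums were 64.1, 9.51 and 10.6 FPKM with shSNHG1#1, 6.70 to 7.77 FPKM with shSNHG1#2 and 10.7 to 11.6 FPKM with shNC. With replicates 2 and 3 of shSNHG1#1 alone against shNC, the log2 fold change was -1.20 for FN1, -0.94 for THBS1, -0.49 for TGFBI, 1.77 for NID2, 0.60 for NID1, 0.63 for HSPG2, 0.66 for COL4A1 and 0.44 for COL7A1, close to the values over all libraries. For SPARC, COL12A1, COL4A2 and COL4A5 the part of the foreign transcripts in the lost calls was not tested.

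**Figure D4:**
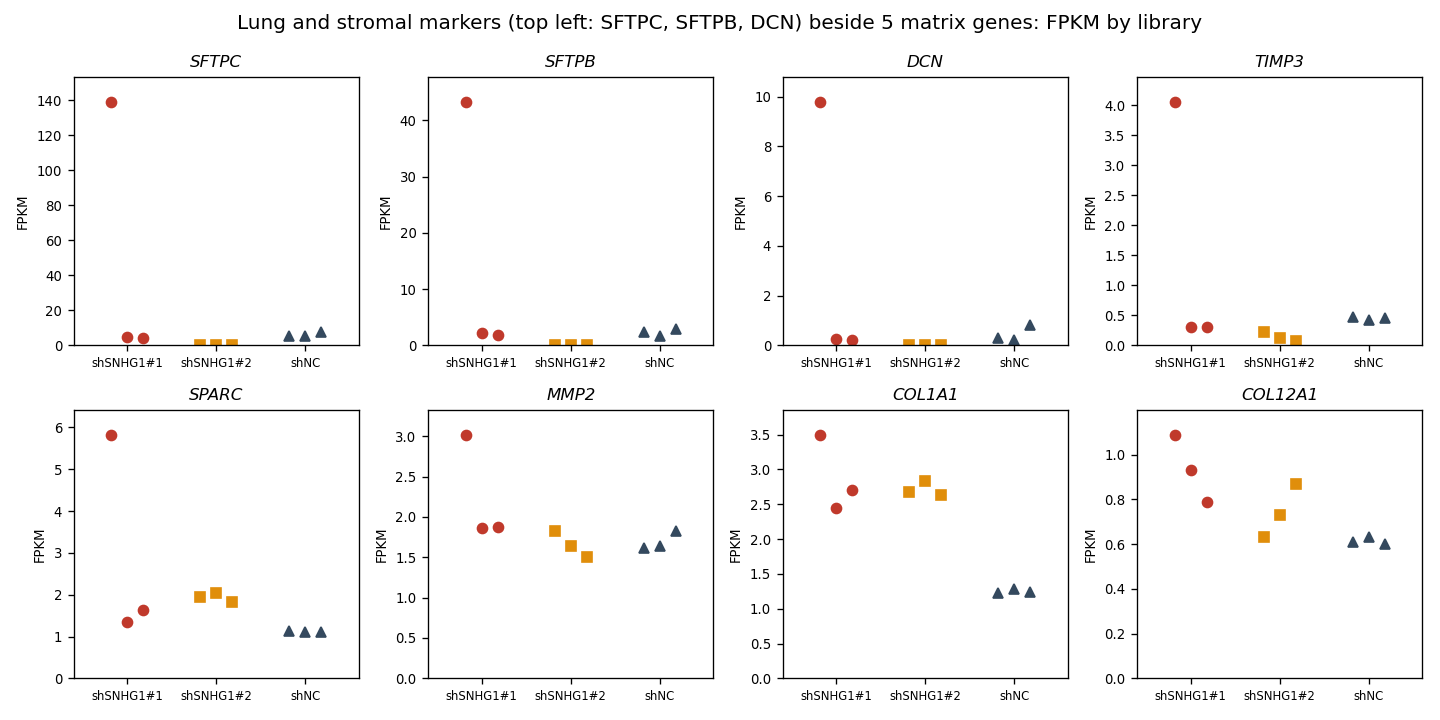
FPKM in each library (vertical axes, from 0) of the lung genes SFTPC and SFTPB and the fibroblast gene DCN, beside TIMP3, SPARC, MMP2, COL1A1 and COL12A1, with shSNHG1#1 on the left, shSNHG1#2 in the middle and shNC on the right of each panel. In all 8 panels the first red circle, replicate 1 of shSNHG1#1, is the highest point, and for COL1A1 the other hairpin libraries also lie above the control.

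**Figure D5:**
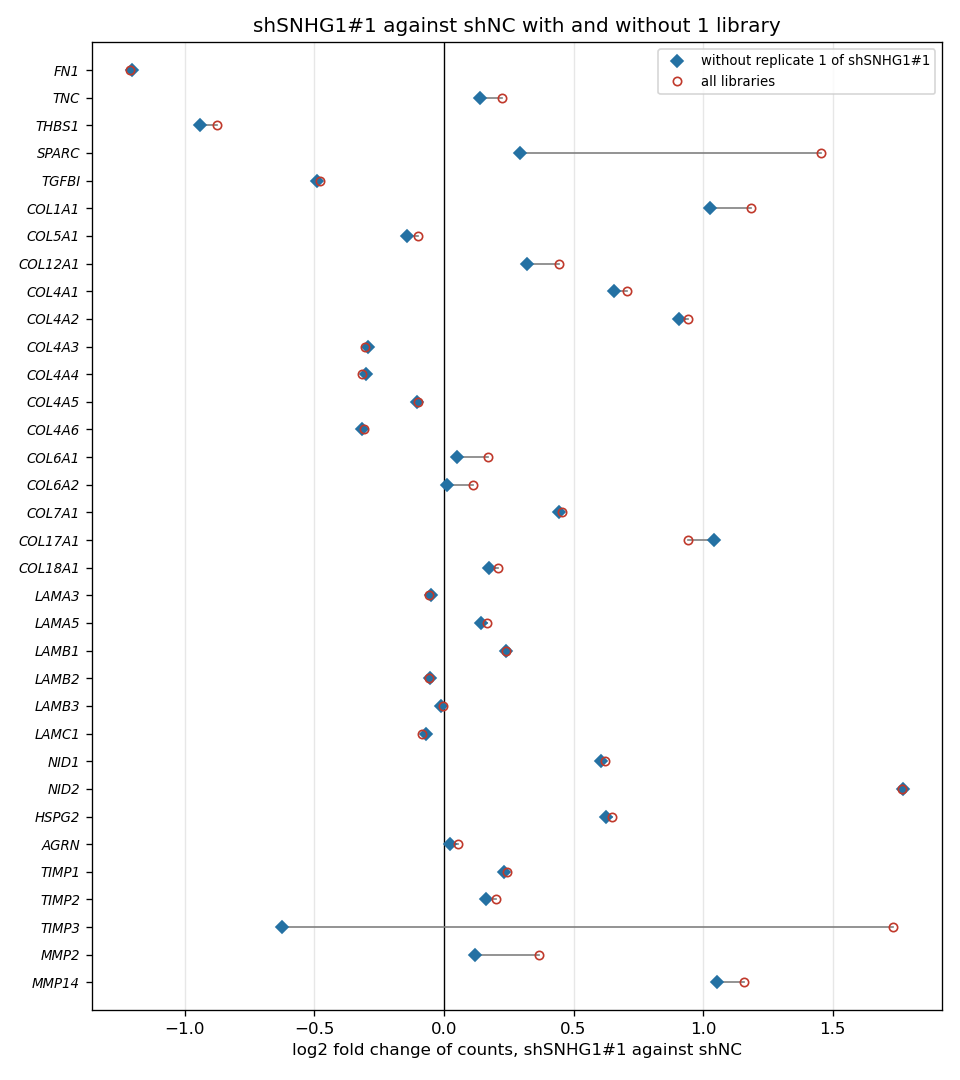
Log2 fold change of counts with shSNHG1#1 against shNC for each of the 34 genes, over all libraries (open circles) and without replicate 1 of shSNHG1#1 (filled diamonds). TIMP3 lies on the other side of 0 and SPARC at 0.29 without that library, while for FN1 and NID2 the symbols lie on each other.

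Other genes of the matrix were counted in lists, to be read against 48.1% of all features called with shSNHG1#1 and 46.2% with shSNHG1#2. Of 17 tested genes for other laminin and collagen chains, 4 were higher and 3 lower with shSNHG1#1, and 3 higher and 4 lower with shSNHG1#2, in each case 41.2%. Without replicate 1 of shSNHG1#1 the count with shSNHG1#1 was 2 higher and 3 lower of 18. The 2 with the smallest p in both comparisons fell: COL5A2, which joins COL5A1 in type V collagen, had 48.8 to 50.2 FPKM with shSNHG1#1, 52.3 to 54.5 FPKM with shSNHG1#2 and 73.3 to 73.5 FPKM with shNC (log2 fold change -0.62 and -0.52, adjusted p = 3.86e-09 and 1.96e-08), and COL27A1, a fibrillar collagen of cartilage, changed by -0.74 and -0.66 (adjusted p = 1.33e-07 and 3.95e-07). COL5A1, in contrast, did not pass. Of 24 other glycoproteins and proteoglycans, 12 were higher and 3 lower with shSNHG1#1, and 8 higher and 4 lower with shSNHG1#2, or 62.5% and 50%. Leaving out replicate 1 of shSNHG1#1 gave 9 higher and 5 lower with shSNHG1#1. SMOC1, a calcium-binding basement membrane protein, had 27.4 to 28.3 FPKM with shSNHG1#1, 30.0 to 30.7 FPKM with shSNHG1#2 and 10.6 to 11.5 FPKM with shNC (log2 fold change 1.29 and 1.38, adjusted p = 6.07e-10 and 4.43e-10). EFEMP1, a fibulin known for a dominant macular disease, changed by 1.81 with shSNHG1#1 and 1.18 with shSNHG1#2 (adjusted p = 2.67e-08 and 1.12e-06), and FBN2, a microfibril protein, by 0.83 and 0.59 (adjusted p = 3.86e-08 and 7.84e-07).

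Of 19 tested enzymes that fold and crosslink collagen, 4 were higher and 11 lower with shSNHG1#1, and 5 higher and 11 lower with shSNHG1#2. These are 78.9% and 84.2% called, against 48.1% and 46.2% of all features, of which 23.5% and 22.8% were lower. PLOD2, which hydroxylates lysines of collagen, had 82.6 to 90.5 FPKM with shSNHG1#1, 94.2 to 98.5 FPKM with shSNHG1#2 and 323 to 326 FPKM with shNC (log2 fold change -1.95 and -1.83, adjusted p = 9.53e-12 and 2.16e-11). P4HA1, a subunit of collagen prolyl hydroxylase, had 26.0 to 26.8 FPKM with shSNHG1#1, 30.9 to 32.8 FPKM with shSNHG1#2 and 103 to 105 FPKM with shNC (-1.89 and -1.69, adjusted p = 2.65e-11 and 6.30e-11). So some collagen chains, such as COL1A1 and COL4A1, were higher in the same libraries in which PLOD2 and P4HA1 were lower. Other chains, such as COL4A4, COL5A2 and COL27A1, were lower in those libraries too. COL1A1 had at most 3.50 FPKM in any library, and COL1A2 at most 0.11 FPKM outside replicate 1 of shSNHG1#1, where it had 1.56 FPKM.

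Other proteases and inhibitors split, with 9 higher and 8 lower of 23 with shSNHG1#1, and 10 higher and 7 lower with shSNHG1#2, 73.9% in each case, against 48.1% and 46.2% of all features. PLAU, the urokinase that activates plasminogen, had 105 to 114 FPKM with shSNHG1#1, 92.7 to 95 FPKM with shSNHG1#2 and 54.7 to 57.7 FPKM with shNC (0.92 and 0.66, adjusted p = 5.85e-09 and 9.88e-08). Of 19 matrix receptors, 5 were higher and 8 lower with each hairpin, 68.4% against the same shares of all features, and 5 higher and 7 lower with shSNHG1#1 without its replicate 1. ITGA5, the integrin chain that binds fibronectin, changed by -0.66 with shSNHG1#1 and -0.49 with shSNHG1#2 (adjusted p = 9.42e-09 and 1.07e-07), the same direction as FN1, and ITGA2, a collagen-binding chain, by -0.76 and -0.54 (adjusted p = 9.21e-08 and 1.53e-06).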

How the data were processed

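Cells of 3 groups with 3 libraries each were measured by RNA sequencing. Per the file headers, the deposited table gives an estimated count and an expression value for each feature and library. The expression values have the properties of FPKM, and the authors scaled them to library size and transcript length. Per the submitters' processing notes, DESeq2 1.4.5, RSEM 1.2.12, HISAT2 2.0.4 and Bowtie2 2.2.5 were used, in roles not stated there. The build, annotation and strand setting behind the counts were not given in the sources used here. Values of overlapping genes (in RefSeq, ATIC with FN1, FSIP1 with THBS1, RTRAF with NID2, LDLRAD2 with HSPG2, SLC19A1 with COL18A1, RHBDD1 with COL4A4, SYN1 with TIMP1, SYN3 with TIMP3 and CEP295NL with TIMP2) are uncertain. Transcript length, implied by count and FPKM, varied between libraries by up to 1.59-fold for TNC, 1.54-fold for COL4A3, 1.44-fold for SPARC, 1.39-fold for TIMP3, 1.19-fold for COL4A2 and 1.18-fold for COL4A6, so their FPKM and counts can differ.

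After rounding to whole numbers, estimated counts were tested in R 4.3.3 with edgeR 4.0.16 (TMM factors, filterByExpr, quasi-likelihood F test, all 9 libraries in 1 fit without covariates). Benjamini-Hochberg adjustment ran over 18767 features, with a threshold of 0.05. The SE of a log2 fold change was derived from the F statistic. FPKM is scaled to the library and carries no TMM factor: an unnamed feature took 11.8% to 13.5% of counts in hairpin libraries and 6.57% to 7.09% in shNC libraries, so FPKM ratios and count fold changes differ somewhat. Replicates were compared by a chi-square test of counts (3.13 to 6.14 per degree of freedom), and none was a duplicate. Alternatives were other scaling, no filter, a replicate block, DESeq2 1.42.0, limma 3.58.1 on log2(FPKM + 1), the libraries of each pair of groups alone, and leaving out each library.

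The 34 genes and the gene lists were chosen with earlier results of these data known. Values in every library are given for genes with a mean of at least 10 FPKM in a group, a change of at least 1.5-fold past the threshold, or a call that depends on replicate 1 of shSNHG1#1. From each further list the 2 genes with the smallest p in each comparison against shNC are named, except 1 gene that is not reported here.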

Additional observations from a re-analysis of the deposited data

Results flagged for a closer look

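FN1, COL4A5, COL4A6, COL7A1 and LAMB1 differed between the hairpins by the test of that difference itself. With shSNHG1#2 against shSNHG1#1 the edgeR quasi-likelihood log2 fold change was 0.33 for FN1 (adjusted p = 3.58e-05), 0.25 for COL4A5 (adjusted p = 0.00271), 0.21 for COL4A6 (adjusted p = 0.000976), 0.15 for COL7A1 (adjusted p = 0.0173) and -0.11 for LAMB1 (adjusted p = 0.0348). FN1 fell and COL7A1 rose with both hairpins against shNC, so for them the size differed and not the direction. COL4A5 was above the control with shSNHG1#2 and overlapped it with shSNHG1#1. The LAMB1 call was lost in most fits with 1 library left out (edgeR adjusted p up to 0.22). COL7A1 lost its call without replicate 2 of shSNHG1#1 (edgeR adjusted p = 0.0567). For COL4A6 the FPKM of the hairpins overlapped, and limma on log2(FPKM + 1) gave an adjusted p of 0.487. No cause of these differences was tested.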

How the results depend on the processing

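Set against the edgeR fit over all libraries, no value changed direction where that fit or the alternative called it. Alternatives did differ from each other. TIMP3 with shSNHG1#1 was called at 2.21 without replicate 2 of that group and was -0.62, not called, without replicate 1. COL4A2 with shSNHG1#2 was called at 0.84 without replicate 3 of that group and was -0.10, not called, without replicate 2. Among results of single genes in the 34, 678 under other settings and 868 with 1 library left out kept their side of the threshold, 13 and 14 came to pass it, and 23 and 36 no longer did. The genes concerned are named in the report. Genes called over the whole table between shSNHG1#2 and shSNHG1#1 numbered 586, against 965 with DESeq2 and 386 with only the 6 libraries compared. Leaving out 1 library gave 297 to 534 (297 without replicate 2 of shSNHG1#2, 349 without its replicate 3, 351 without replicate 3 of shSNHG1#1). Of the 34 genes, 3 to 6 were then called between the hairpins, 18 to 24 with shSNHG1#1 against shNC and 19 to 24 with shSNHG1#2 against shNC, with 8051 to 8939 and 7676 to 8753 features over the whole table. The share of calls that were higher with shSNHG1#2 against shNC was 50.5%, and 60.9% under library totals, with 18 higher and 4 lower of the 34. Between the hairpins that share was 64%, against 74.8% under library totals, 76.9% with limma on log2(FPKM + 1), and 80.8% and 78.2% without replicate 2 or 3 of shSNHG1#2. Same-numbered samples did not deviate together (correlations of -0.04 to 0.03). Whether they were handled together is on no label, and these correlations cannot show it. With a replicate block 21, 22 and 4 of the 34 genes were called, and 8752, 8421 and 433 features, for shSNHG1#1 against shNC, shSNHG1#2 against shNC and shSNHG1#2 against shSNHG1#1. Where a value moved, the cause was not tested. Genes such as COL17A1, TNC and, outside replicate 1 of shSNHG1#1, TIMP3 rest on few reads, which limits what these libraries can show of them. COL12A1, though near 1 FPKM, had 144 to 242 estimated counts a library. In shNC libraries MMP14 had 64 to 79 and NID2 104 to 114 estimated counts.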
